A study of Saccharomyces cerevisiae with 50 samples.

Results

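The promoters described here belong to 10 genes of serine, threonine and methionine biosynthesis in Saccharomyces cerevisiae: HOM3, HOM2, THR1, THR4, SER3, SER33, SER1, MET6, MET13 and MET16. They were chosen by gene name, and a promoter was taken as the 600 bp upstream of the gene start in genome build R64, giving 10 of the 6430 promoters in the annotation used. A promoter was counted as having a peak in an immunoprecipitation (IP) when a called ChIP-Seq peak overlapped it by at least 1 bp, and the score of that peak was recorded, with 0 where there was none. The score comes from the peak caller MACS, rises as the p-value of the peak falls, and also rises with read depth, which the peak lists do not give. It is a measure of peak strength within a list and only loosely comparable between lists, so the percent of peaks in the same list with a lower score is given beside it.

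The study asked whether the binding of one transcription factor depends on a partner factor. The series holds 50 samples, 30 IPs and 20 INPUT samples, and each of 6 factors carried a C-terminal myc tag and was immunoprecipitated with anti-Myc resin from a wild-type W303 strain and from the same background with the partner's gene replaced by a kanamycin marker. Gcn4p was compared between wild type and rtg3Δ, Rtg3p between wild type and gcn4Δ, Nrg1p between wild type and sut1Δ, and Sut1p between wild type and nrg1Δ, with 3 IPs per strain. Swi6p was compared between wild type and swi4Δ with 2 IPs per strain, and Swi4p between wild type and swi6Δ with 1. The Gcn4p and Rtg3p strains grew in rich medium (YPD) and were treated with 100 nM rapamycin, an inhibitor of the TOR kinase, for 20 min, whereas the Nrg1p, Sut1p and Swi4p strains grew in YPD alone and the labels do not name the medium of the Swi6p strains. The methods say that the wild-type replicates of a factor were made by splitting a single culture while the deletion strains were grown as separate cultures, so that the spread among wild-type IPs holds no difference between cultures.

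Yeast makes threonine and methionine from aspartate through homoserine, and makes serine from the glycolytic intermediate phosphoglycerate. Sulfate reduction and the folate cycle supply the sulfur and the methyl group of methionine. Gcn4p is the activator of the general amino acid control and is known for binding upstream of genes in many amino acid pathways. Rtg3p acts with Rtg1p in the retrograde response, which adjusts glutamate and nitrogen metabolism, and both responses are linked to TOR signaling. Nrg1p and Sut1p are regulators of glucose-repressed genes and of sterol uptake, respectively, and Swi4p and Swi6p form the SBF activator of G1 genes.

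Of the 10 promoters, 7 had a peak in at least 1 of the 30 IPs, against 50.2% of all promoters. The promoters of THR1, THR4 and SER33 had none. Gcn4p accounted for the largest number, with a peak at 5 of the 10 promoters in at least 1 of its 6 IPs, against 23.3% of all promoters. These were HOM3, HOM2, SER3, MET6 and MET13. Sut1p had a peak at 2 of the 10 (SER1 and MET6), against 32.0% of all promoters, and Swi6p at 2 (HOM3 and MET16), against 10.2%. Rtg3p had a peak at 1 (SER3), against 10.4%, and Swi4p at 1 (MET6), against 6.39%. Nrg1p had none at these genes in any of its 6 IPs, against 2.58% of all promoters.

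**Figure D1:**
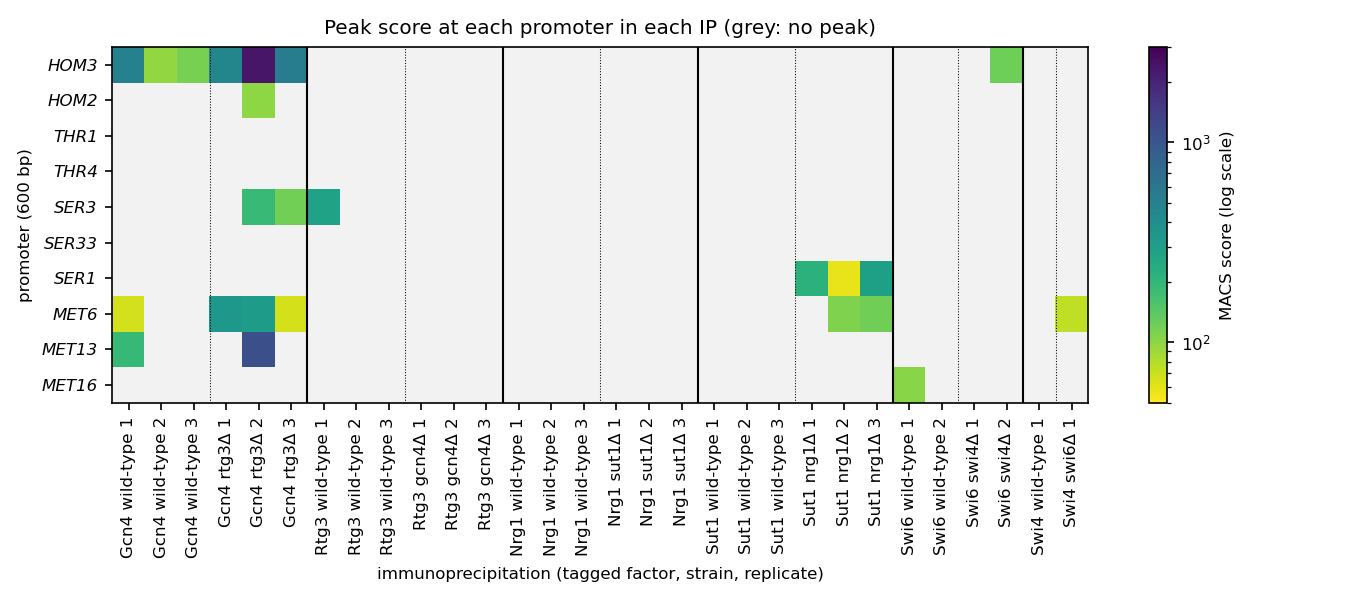
MACS score (color, log scale) of the peak at each of the 10 promoters (vertical axis) in each of the 30 IPs (horizontal axis), with grey where no peak was called. The HOM3 promoter had a Gcn4p peak in all 6 Gcn4p IPs, and the THR1, THR4 and SER33 promoters had no peak in any IP.

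The Gcn4p lists held 416 to 626 peaks, and 3, 1 and 1 of the 10 promoters were bound in the wild-type IPs (1.67 ± 1.15, SD, n = 3). In rtg3Δ, 2, 5 and 3 had a peak (3.33 ± 1.53, SD, n = 3). The share of all promoters with a Gcn4p peak was slightly lower in rtg3Δ (6.87%, 8.77% and 9.95%) than in wild type (9.78%, 10.1% and 10.5%). The counts in the 2 strains overlapped, since wild-type IP 1 had as many as rtg3Δ IP 3 and more than rtg3Δ IP 1. Without wild-type IP 1 the wild-type mean was 1 promoter, and without rtg3Δ IP 1 the rtg3Δ mean was 4. In the wild-type Sut1p IPs (lists of 117 to 579 peaks) none of the 10 had a peak, and 2.89%, 6.83% and 11.4% of all promoters had one. In the nrg1Δ IPs (lists of 696 to 1065 peaks) 1, 2 and 2 of the 10 had one, where 12.2%, 16.3% and 18.2% of all promoters had one.

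**Figure D2:**
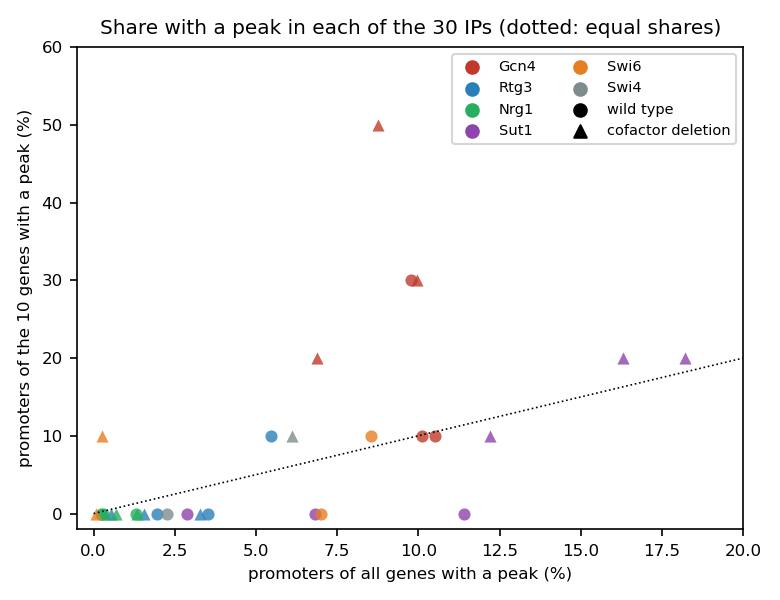
Percent of the 10 promoters with a peak (vertical axis) against the percent of all 6430 promoters with a peak (horizontal axis), 1 point per IP, circles for wild type and triangles for deletion strains, colored by factor, with a dotted line at equal shares. The point farthest above the line is Gcn4p rtg3Δ IP 2, at 50.0% of the 10 promoters against 8.77% of all, and the Sut1p nrg1Δ points lie near the line.

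The Gcn4p lists grouped only in part by strain. Wild-type list 1 shared 49.9% and 50.5% of promoters with rtg3Δ lists 2 and 3 (shared promoters as a percent of those in either list). With wild-type lists 2 and 3 it shared 41.9% and 29.9%. Wild-type lists 2 and 3 shared 45.2% with each other and 19.7% to 38.8% with the rtg3Δ lists. Lists 2 and 3 of rtg3Δ shared 45.6% with each other. List 1 of rtg3Δ stood apart from the other 5, sharing 19.7% to 31.6% with each, and its peaks were narrower (median width 751 bp, against 1186 to 1671 bp) and higher in score (median 446, against 142 to 217). The part of these differences in the values at single promoters was not tested. The strain differences of Gcn4p at single promoters of these pathways are therefore also given without wild-type IP 1 and without rtg3Δ IP 1.

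The first steps from aspartate are catalyzed by aspartate kinase, encoded by HOM3, and by aspartate semialdehyde dehydrogenase, encoded by HOM2. HOM3 (YER052C, chromosome 5, 256375 to 257958, minus strand) was the only one of the 10 with a Gcn4p peak in all 6 IPs, as had 2.13% of all promoters. Its score was 499.7, 97.2 and 116 in wild-type IPs 1, 2 and 3, and 458, 2335 and 530.2 in rtg3Δ IPs 1, 2 and 3. The strains overlapped, because wild-type IP 1 lay above rtg3Δ IP 1, while the remaining wild-type IPs lay below every rtg3Δ IP. As a rank within its own list, the HOM3 peak scored above 74.5%, 33.9% and 43.0% of the wild-type peaks and above 51.2%, 88.9% and 78.2% of the rtg3Δ peaks.

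The mean HOM3 score was 238 ± 227 in wild type and 1108 ± 1064 in rtg3Δ (SD, n = 3 each), a difference of 870.0 that was smaller than the SD in rtg3Δ (exact permutation test, two-sided, p = 0.2, adjusted p = 1 over the 1501 promoters with a Gcn4p peak). With 3 IPs against 3 this test cannot go below 0.1, so no promoter could pass the adjustment. Much of the difference came from rtg3Δ IP 2, without which it was 256. Without wild-type IP 1 it was 1001 and without rtg3Δ IP 1 it was 1195, and in both cases the strains no longer overlapped (exact p = 0.3 and 0.1). They still overlapped when wild-type IP 2, wild-type IP 3, rtg3Δ IP 2 or rtg3Δ IP 3 was left out instead. Across the 137 promoters with a Gcn4p peak in every IP the median difference was 218, and 78.8% of them had a higher mean score in rtg3Δ. The difference at HOM3 was above that of 81.0% of these promoters.

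The HOM3 peaks also differed in place and width. The 3 rtg3Δ peaks were centered 428, 291.5 and 318 bp upstream of the gene start and were 619, 1220 and 1107 bp wide. The wild-type peaks were 1619, 1750 and 2346 bp wide, and centered 509 bp upstream in IP 1, 96.5 bp inside the gene in IP 2 and 142.5 bp upstream in IP 3. All of the rtg3Δ centers thus lay inside the promoter, and of the wild-type centers all but that of IP 2. No other promoter lay under these 6 Gcn4p peaks.

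HOM2 (YDR158W, chromosome 4, 770357 to 771454, plus strand) had a single Gcn4p peak, in rtg3Δ IP 2, with a score of 99.9, above 24.3% of its list. The peak was centered 190.5 bp upstream of the gene start and also overlapped the promoter of YDR157W. The other 5 Gcn4p IPs had no peak there (difference 33.3, exact permutation p = 1, adjusted p = 1). The difference was 33.3 without wild-type IP 1, 49.9 without rtg3Δ IP 1 and 0 without rtg3Δ IP 2. The 3 wild-type IPs had Gcn4p peaks farther upstream, with scores of 66.1, 273 and 123, which ended 1290, 1417 and 1077 bp before the HOM2 promoter. THR1, which encodes homoserine kinase, and THR4, which encodes threonine synthase, catalyze the last steps to threonine, and neither had a peak of any factor. The nearest peak to the THR1 promoter was a Gcn4p peak of wild-type IP 3 (score 110.3), 605 bp away. The nearest to the THR4 promoter was a Gcn4p peak of wild-type IP 2, 10391 bp away. In this branch, HOM3 was thus the only promoter with a Gcn4p peak in more than 1 IP.

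**Figure D3:**
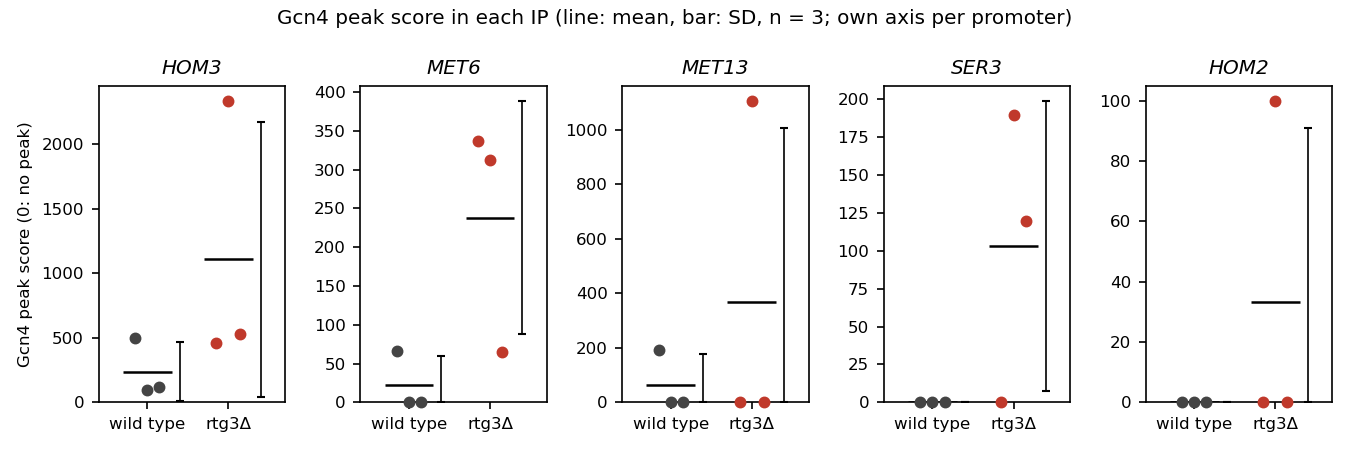
Score of the Gcn4p peak (vertical axis, 0 where no peak was called, a separate linear axis for each promoter) in the 3 wild-type and 3 rtg3Δ IPs, with points for IPs in the order 1, 2, 3, lines for means and bars for the SD (n = 3, cut at 0). The mean was higher in rtg3Δ at all 5 promoters, and at each of them at least 1 rtg3Δ IP lay at or below a wild-type IP. HOM2 and SER3 had no wild-type peak, so their means could not be lower in rtg3Δ.

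SER3 and SER33 encode the isozymes of 3-phosphoglycerate dehydrogenase, the first enzyme of serine synthesis. SER3 (YER081W, chromosome 5, 322686 to 324095, plus strand) lies downstream of SRG1, a noncoding gene that is transcribed across the SER3 promoter and is known for repressing SER3 when serine is plentiful. SRG1 started 474 bp upstream of SER3 in the annotation, and all 3 peaks over the SER3 promoter also overlapped the 600 bp upstream of SRG1. The Gcn4p score at SER3 was 0 in all 3 wild-type IPs and 0, 189 and 119 in rtg3Δ IPs 1, 2 and 3. The peak scored above 44.7% of list 2 and above 38.1% of list 3, and the strains overlapped through rtg3Δ IP 1 (difference 103, exact permutation p = 0.4, adjusted p = 1). Without rtg3Δ IP 1 the difference was 154 (exact p = 0.1, the smallest possible), without rtg3Δ IP 2 it was 59.7, and leaving out wild-type IP 1 left it at 103.

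In rtg3Δ IP 1, the IP of that strain without a SER3 call, a Gcn4p peak lay farther upstream. It had a score of 299, ended 417 bp before the SER3 promoter and reached into the 600 bp upstream of SRG1. At the SRG1 promoter, which was added after these values were seen, the Gcn4p score was 0 in each wild-type IP and 299, 189 and 119 in rtg3Δ IPs 1, 2 and 3. The strains did not overlap there (difference 203, exact permutation p = 0.1, the smallest that 3 against 3 allows, adjusted p = 1), as was so for 0.653% of all promoters in this direction and for 0 of the 10. The opposite order, every wild-type score above every rtg3Δ score, held for 0.855% of all promoters and for 0 of the 10. Without wild-type IP 1 the SRG1 difference was 203 (exact p = 0.2) and without rtg3Δ IP 1 it was 154 (exact p = 0.1), and in neither case did the strains overlap. With a 300 bp promoter the SRG1 difference was 103 and the strains overlapped (exact p = 0.4).

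SER3 was also the only one of the 10 with an Rtg3p peak. It was called in wild-type IP 1 with a score of 286, above 94.3% of that list, was 2014 bp wide and covered the SRG1 promoter too. Wild-type IPs 2 and 3 and all 3 gcn4Δ IPs had no peak (difference −95.3, exact permutation p = 1, adjusted p = 1). The SER3 call of Rtg3p thus rested on 1 IP of 3, from the longest of the 6 Rtg3p lists (297 peaks, against 46 to 216). SER33 (YIL074C, chromosome 9, 221081 to 222490, minus strand) had no peak of any factor, and the nearest, a Sut1p peak of wild-type IP 3, was 2652 bp from its promoter.

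**Figure D4:**
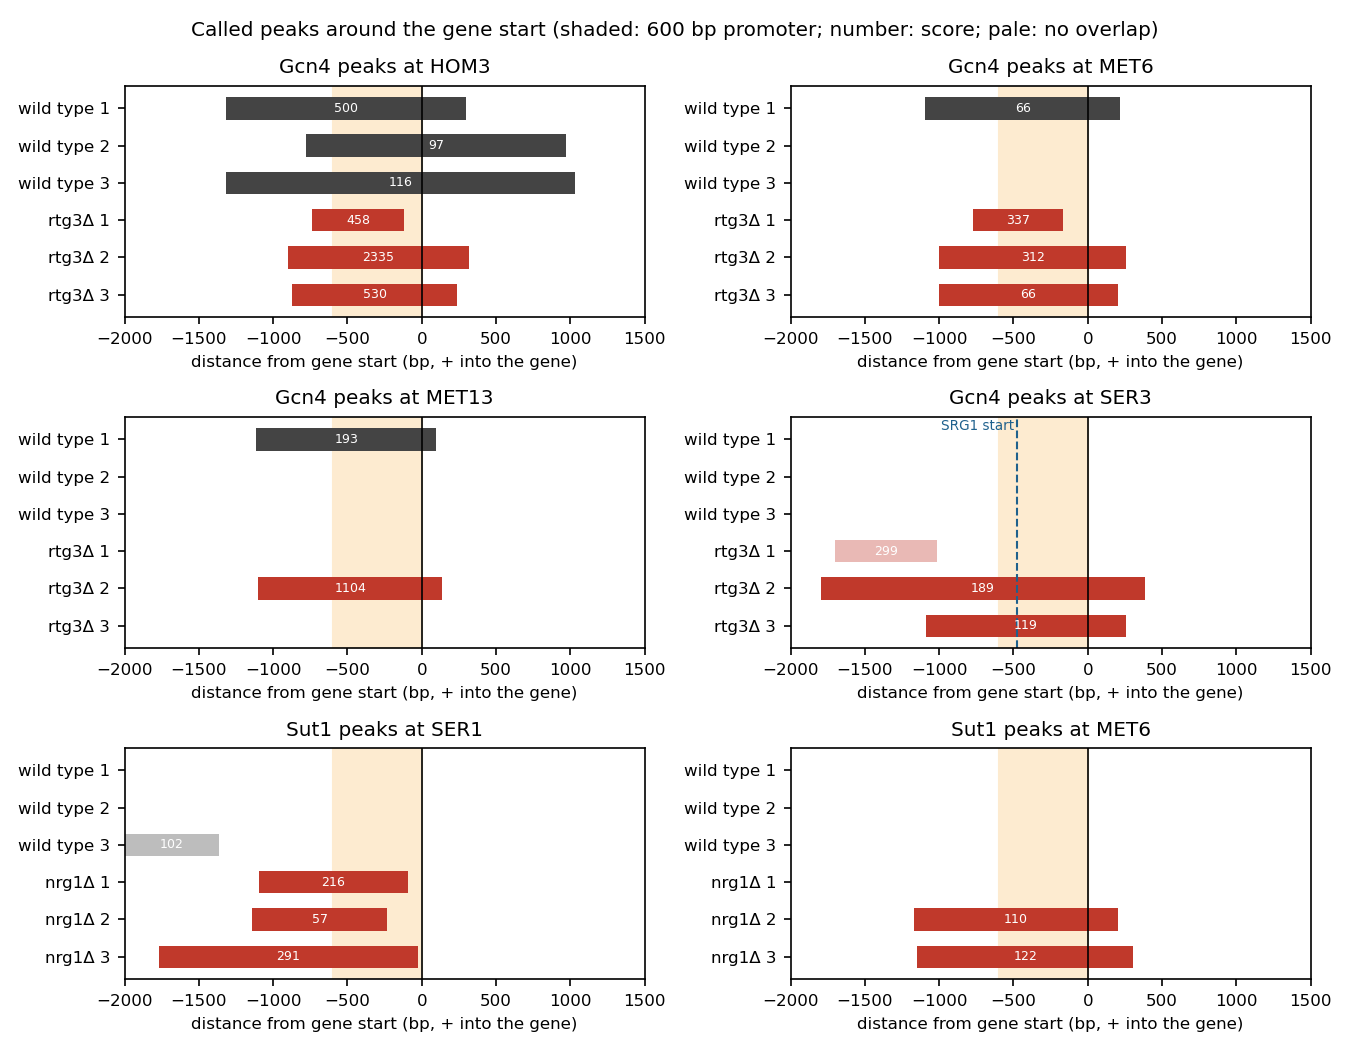
Called peaks (bars, with their scores) around the gene start at HOM3, MET6, MET13 and SER3 for Gcn4p and at SER1 and MET6 for Sut1p, by distance from the gene start in bp, 1 line per IP, grey for wild type and red for the deletion strain, with the 600 bp promoter shaded and peaks that do not overlap it drawn pale. The Gcn4p peak of rtg3Δ IP 1 near SER3 (score 299) ended upstream of the shaded promoter, and the 3 Sut1p peaks at SER1 were centered near or beyond its far edge.

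The methionine branch is represented by MET6, which encodes the cobalamin-independent methionine synthase, MET13, which encodes a methylenetetrahydrofolate reductase that supplies its methyl donor, and MET16, which encodes phosphoadenylyl-sulfate reductase of sulfate assimilation. MET6 (YER091C, chromosome 5, 339864 to 342167, minus strand) had peaks of 3 factors, more than any other of the 10. Its Gcn4p score was 65.8, 0 and 0 in wild-type IPs 1, 2 and 3, and 337, 312 and 65.5 in rtg3Δ IPs 1, 2 and 3. All 3 rtg3Δ IPs had a peak, but that of IP 3 was as low as the wild-type peak of IP 1, so the strains just overlapped. As a rank the peak stood above 14.9% of wild-type list 1 and above 34.8%, 56.7% and 14.0% of the rtg3Δ lists, so that it was in the lower part of all of them except rtg3Δ list 2.

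The mean Gcn4p score at MET6 was 21.9 ± 38.0 in wild type and 238 ± 150.0 in rtg3Δ (SD, n = 3 each). The difference of 216 was larger than either SD, but the strains overlapped (exact permutation test, two-sided, p = 0.2, adjusted p = 1). It was 238 without wild-type IP 1, where the strains did not overlap, and 167 without rtg3Δ IP 1, where they did. The strains also did not overlap without rtg3Δ IP 3, but did without wild-type IP 2, wild-type IP 3 or rtg3Δ IP 2. The 4 Gcn4p peaks were centered between 370.5 and 471 bp upstream of the gene start. MET6 is divergent from IES5, which encodes a subunit of the INO80 chromatin remodeling complex. All 7 peaks at the MET6 promoter also overlapped that of IES5, so that the peaks cannot be assigned to either gene.

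MET13 (YGL125W, chromosome 7, 272520 to 274322, plus strand) had a Gcn4p peak in 1 IP of each strain. Its score was 193 in wild-type IP 1 and 1104 in rtg3Δ IP 2, above 56.0% and 82.2% of the peaks in those lists, and 0 in the other 4 IPs. The difference of the means was 304 and the strains overlapped (exact permutation p = 1, adjusted p = 1). It was 368 without wild-type IP 1, 488 without rtg3Δ IP 1 and −64.4 without rtg3Δ IP 2. The peaks were centered 507.5 and 481 bp upstream of the gene start, so that both calls fell at nearly the same place. MET16 (YPR167C, chromosome 16, 876847 to 877632, minus strand) had no Gcn4p peak.

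At the 5 promoters with a Gcn4p peak, none of which passed the test, the mean score was higher in rtg3Δ at 5 of 5. Their median difference was 216. The mean was higher at 51.7% of the 1501 promoters with a Gcn4p peak in at least 1 IP, whose median difference was 12.4. HOM2 and SER3 had Gcn4p peaks in rtg3Δ IPs only. With no call scored as 0, their means could only be higher in rtg3Δ, so the choice of promoters fixed their direction. The same holds, in either direction, for those of the 1501 with calls in only 1 strain. Without rtg3Δ IP 2 the mean score was higher at 3 of 5, with a median difference of 59.7. This compares with 42.0% of the 1501 promoters, whose median was then −12.7. The mean score stayed higher at 5 of 5 without wild-type IP 1, against 52.5% of the 1501 promoters. It also did so without rtg3Δ IP 1 (against 42.2%) and without rtg3Δ IP 3 (against 41.9%). The share over all 1501 thus fell alike whichever rtg3Δ IP was left out. The scores of the strains overlapped at all 5 promoters, and rtg3Δ IP 2 held the highest score at 4 of the 5 (HOM3, HOM2, SER3 and MET13). At HOM2 it held the only score. Counting calls instead of scores, 1 of the 10 promoters (HOM3) had a peak in at least 2 wild-type Gcn4p IPs, against 8.72% of all promoters. In rtg3Δ 3 of the 10 (HOM3, SER3 and MET6) had a peak in at least 2 IPs, against 6.89% of all promoters.

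SER1 (YOR184W, chromosome 15, 679357 to 680544, plus strand), which encodes phosphoserine aminotransferase of serine synthesis, had no Gcn4p peak and had Sut1p peaks in nrg1Δ IPs only. Its Sut1p score was 0 in all 3 wild-type IPs and 216, 57.3 and 291 in nrg1Δ IPs 1, 2 and 3, above 73.6%, 7.92% and 80.8% of the peaks in those lists. The labels give a single INPUT sample for each Sut1p strain, so the 3 calls in nrg1Δ appear to share their control. The strains did not overlap, with a difference of 188 (SD in nrg1Δ 119, n = 3, exact permutation p = 0.1, the smallest possible, adjusted p = 0.608 over 2056 promoters). The same smallest p, in either direction, was reached at 338 of these 2056 promoters. A peak in every nrg1Δ IP and in no wild-type IP was found at 1 of the 10 promoters and at 2.97% of all promoters. The peaks were centered 594.5, 685.5 and 897.5 bp upstream of the SER1 start. They also overlapped the promoters of RPS30B, a divergent gene for a protein of the small ribosomal subunit, and of FYV12. Only the center of IP 1 lay inside the SER1 promoter. Wild-type IP 3 had a Sut1p peak farther upstream, with a score of 102, which ended 762 bp before the promoter. That peak overlapped the nrg1Δ IP 3 peak. With scores of 100 or more only, nrg1Δ IP 2 had no peak, so the strains overlapped (difference 169, exact permutation p = 0.4).

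MET6 was the other Sut1p promoter. Its score was 0 in all wild-type IPs and 0, 110.0 and 122 in nrg1Δ IPs 1, 2 and 3, so the strains overlapped through nrg1Δ IP 1 (difference 77.2, exact permutation p = 0.4, adjusted p = 0.961). A peak in at least 2 nrg1Δ IPs and in no wild-type IP was found at 2 of the 10 promoters and at 6.53% of all. The nrg1Δ lists were longer than the wild-type lists, and when every Sut1p list was reduced to its 117 highest peaks, the length of the shortest, none of the 10 promoters had a peak. Wild-type list 3 also stood apart from the other wild-type lists, with which it shared 3.97% and 8.24% of promoters, against 23.6% to 30.8% with the nrg1Δ lists. Without wild-type IP 3 the differences at SER1 and MET6 were the same, 188 and 77.2, because its scores there were 0.

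The calls of Swi6p and Swi4p came from the edges of wide peaks. The Swi6p peak at MET16 was called in wild-type IP 1 only, with a score of 103, and 391 bp of its 3074 bp lay in the promoter. It was centered 1746.5 bp upstream of the gene start and overlapped the promoters of NUT2, JIP5 and YNCP0024C as well. The Swi6p peak at HOM3 was called in swi4Δ IP 2 only, with a score of 123, and 56 bp of its 5343 bp lay in the promoter. It also overlapped the promoters of PIC2, YER053C-A and GIP2, and the lists of swi4Δ held 3 and 8 peaks in all. Neither difference exceeded the spread (61.3 at HOM3 and −51.6 at MET16, exact permutation p = 1 for both, where 2 against 2 cannot go below 0.33).

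The Swi4p peak at MET6, in the swi6Δ IP, had a score of 74.4. It was 2502 bp wide and centered 1111.5 bp inside the gene, with 139 bp in the promoter, and the wild-type Swi4p IP had no peak there. Swi4p had 1 IP per strain, so this difference has no replicate check.

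The other genes of these pathways gave a reference. Of 39 further genes of serine and glycine, threonine, methionine, transsulfuration, sulfate assimilation, their regulators and uptake, 2 (SAM4 and MET30) had a peak in at least 2 wild-type Gcn4p IPs, and 4 (SAM4, MET4, STR3 and SUL1) in at least 2 rtg3Δ IPs. As shares these were 5.13% and 10.3%, against 10.0% and 30.0% of the 10 genes and 8.72% and 6.89% of all promoters. SAM4, which encodes a homocysteine methyltransferase, was the only one bound by Gcn4p in all 3 wild-type IPs. Its Gcn4p score was 2605, 1728 and 805 in wild-type IPs and 3100, 2324 and 2335 in rtg3Δ IPs, higher than at HOM3 in 5 of the 6 IPs, whereas rtg3Δ IP 2 gave 2335 at HOM3. The strains overlapped at SAM4 through wild-type IP 1. They did not overlap without that IP and still did when any other single Gcn4p IP, such as rtg3Δ IP 1, was left out.

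For the other factors, the further genes bound in all wild-type IPs numbered 3 for Swi6p. They numbered 0 for each of Rtg3p, Nrg1p, Sut1p and Swi4p. These counts are not directly comparable, because the rule was not equally strict. It asked for 2 IPs of Swi6p, 3 each of Rtg3p, Nrg1p and Sut1p, and 1 of Swi4p. When calls in 2 of the 3 IPs were enough, Sut1p reached 2 of the 39 genes (5.13%) and Rtg3p 1 (2.56%). Nrg1p stayed at 0. The Swi6p scores were 1243 and 729 at GCN4, the gene of the activator itself, 94.7 and 55.7 at MET17, which encodes homocysteine synthase, and 94.7 and 55.7 at MUP1, which encodes a methionine permease. These were 7.69% of the 39 genes, against 5.66% of all promoters. In swi4Δ no Swi6p peak was called at these 3 promoters, and 0.342% of all promoters had one in either swi4Δ IP. Of the 10 genes none was bound by Swi6p in both wild-type IPs.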

How the data were processed

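Peak lists of 30 IPs were analysed. The authors aligned single reads of 42 bases with Novoalign 2.07.0 to build R64 and called peaks with MACS 1.4.0rc2, comparing every IP separately with INPUT. The labels give an INPUT for each IP of Gcn4p and Rtg3p, but 1 INPUT per strain for Nrg1p, Sut1p, Swi4p and Swi6p, so replicate calls of Nrg1p, Sut1p and Swi6p appear to share a control. The scores the authors deposited are MACS scores, which are at least 50 in every list and reach about 3100. The lists hold no read counts, so depth is unknown and no counting interval is given. Peak coordinates were made 1-based, and 21 starts below 1 were set to 1. Promoters came from the RefSeq annotation of R64, leaving out mitochondrial genes and 1 gene without a strand. Where several peaks overlapped a promoter the highest score was kept.

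Strains were compared promoter by promoter with an exact permutation test of the mean score, two-sided, with Benjamini-Hochberg adjustment over all promoters with a peak of the factor, tested on simulated data (Python 3.11.15, NumPy 2.4.6, pandas 2.3.3). The study's own test on IP over INPUT ratios was not run because it needs reads. The genes and lists were chosen with earlier results of these data known. Named genes were the 10, the genes sharing their peaks, the further pathway genes bound in all wild-type IPs of a factor, and the 3 promoters most alike in score; MET30, MET4, STR3, SUL1 and SRG1 were named after their values were seen, and leaving IPs out of the count over the 5 Gcn4p promoters was also added then. Promoter sequence was not used here, so a planned motif search was not run.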

Additional observations from a re-analysis of the deposited data

How the results depend on the processing

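The mean number of the 10 promoters with a peak, in each of 12 groups, was recomputed with scores of 100 or more only, 100 bp of overlap, a 300 bp promoter, the peak center inside the promoter, lists of equal length and each IP left out. In 5 groups the mean was 0 from the start and these settings, which only remove calls or IPs, could not change it. In the other 7 groups 46 of 51 values moved by no more than 1 SD, but that SD is as large as the mean or larger where 1 IP holds the only call, and 13 of the 51 fell to 0. Among these were Rtg3p in wild type (0.33, with the center inside the promoter and without IP 1), Swi6p in wild type (0.5, with the center inside, with lists of equal length and without IP 1) and Swi6p in swi4Δ (0.5, with 100 bp of overlap, with a 300 bp promoter, with the center inside and without IP 2). Gcn4p in wild type went from 1.67 to 1 with scores of 100 or more and without IP 1. For Sut1p in nrg1Δ the mean went from 1.67 to 1 with the center inside the promoter and to 0 with lists of equal length. For Swi4p in swi6Δ, with 1 IP, it went from 1 to 0 with scores of 100 or more, with the center inside the promoter and with lists of equal length. Of 117 recomputed score differences 1 changed sign, that of Gcn4p at MET13, which ranged from −64.4 (without rtg3Δ IP 2) to 488 with IPs left out. The cause of that change was not tested. Many of the 117 could not change sign. Where 1 strain had no peak in any IP its scores stay the lowest possible, and the replicate block described below keeps the size. Several fell to 0. For Gcn4p this was HOM2 (scores of 100 or more, and without rtg3Δ IP 2). For Rtg3p it was SER3 (without wild-type IP 1). For Swi6p it was HOM3 (300 bp promoter, and without swi4Δ IP 2) and MET16 (without wild-type IP 1). With the rank in the list in place of the score, the Gcn4p difference was 22.3 percentage points at HOM3 and 30.2 at MET6.

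Same-numbered IPs deviated together in some pairs and not in others. The correlations of their deviations in IPs 1, 2 and 3 were −0.218, −0.443 and 0.198 for Gcn4p and −0.260, 0.342 and 0.434 for Sut1p, ranged from −0.479 to 0.235 for Nrg1p and from −0.00955 to 0.0832 for Rtg3p, and were 0.0497 for Swi6p. No factor had all of its pairs above 0.1, and with 2 IPs per strain the Swi6p values are equal by construction. The methods do not pair the strains by replicate number, so the test was planned without pairs. These correlations are given as a description. With a replicate block the differences keep their size, and the exact p was 0.5 at HOM3 (870.0), 0.25 at MET6 (216) and 0.25 at SER1 for Sut1p (188), where 0.25 is the smallest possible. Peak calls at these promoters are limited by an unknown depth, by 1 to 3 IPs per strain and by peaks wide enough to reach neighboring promoters. A promoter without a call is not shown to be unbound.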

Other observations

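Among promoters outside the pathway and outside the peaks at the 10 genes, those whose scores over the 30 IPs were most like the mean score of the 10 were YIL165C and NIT1 (Pearson r = 0.99 for both, which share 1 peak) and AAT2 (r = 0.99). NIT1 belongs to the nitrilase family and AAT2 encodes the cytosolic aspartate aminotransferase. These correlations are descriptions over IPs that share factors and lists, and they rest on few values, since YIL165C and NIT1 had a peak in 4 IPs and AAT2 in 7. The mean Gcn4p score was 199 in wild type and 1198 in rtg3Δ at NIT1, and 284 and 1420 at AAT2. These promoters were picked for following the mean score of the 10, which was largest in a Gcn4p rtg3Δ IP. A higher mean in rtg3Δ therefore follows from the choice and is not a separate result.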
